A study of Mus musculus with 2 samples.

Results

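The 4 chemokine genes Ccl2, Ccl7, Ccl8 and Ccl12 and the receptor gene Ccr2 were followed through immune cells of mouse skin. These 5 genes were taken by symbol from the 32285 genes of the deposited matrix, and all 5 were found. Their molecules were counted in 2 conditions, control skin at day 0 and skin challenged with DPCP at day 2. DPCP (diphenylcyclopropenone) is a chemical that sensitizes skin and causes a contact allergy there. CD45 marks cells of the blood lineage, so the sort selected against keratinocytes, fibroblasts and vessel cells, and the ligands these make were largely outside the measurement. Cells came from digested full-thickness skin, were labelled by condition with lipid-linked tags, pooled and read in 1 droplet library, in which each molecule carries a unique molecular identifier (UMI). Strain, sex, age and the number of mice behind each tag are not given in the sources used here. Each condition was therefore 1 tagged sample, no test between conditions was possible, and the 95% intervals below cover counting error alone.

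Ccl2, Ccl7, Ccl8 and Ccl12 encode secreted CC chemokines that draw monocytes and other leukocytes toward their source. CCR2, the G protein-coupled receptor of CCL2, CCL7 and CCL12, lets classical monocytes leave the bone marrow and enter inflamed tissue, where many become macrophages or dendritic cells. CCL7 is also known as a ligand of CCR1 and CCR3, and mouse CCL8 as a ligand of CCR8. In skin the ligands are made by macrophages and by stromal cells. Among macrophages, CCR2 is taken as a mark of those that came recently from blood monocytes.

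After filtering, 4967 control cells and 7588 DPCP cells were kept, with medians of 8797 and 4728.5 UMIs per cell. No cell barcode was shared between the conditions. Cells were grouped into 23 clusters without using the 5 genes or the gene lists below, and clusters were named from marker genes. Neutrophil-like cells were 2.19% of control cells and 64.7% of DPCP cells, and monocyte-like cells were 3.58% and 13.5%. Macrophage-like cells numbered 247 and 177. Levels are given as UMIs of the gene scaled to the summed UMIs of the cells named (CPM), and a ratio is the DPCP level over the control level. A gene was called higher or lower where it had at least 50 UMIs, a ratio of at least 2 in either direction and an interval that excluded 1.

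The 4 ligand genes lie side by side on mouse chromosome 11 (build mm10, plus strand). Ccl2 spans 82035571 to 82037453, Ccl7 82045712 to 82047525, Ccl12 82101845 to 82103400 and Ccl8 82115185 to 82116799. The stretch covers 81229 bases and holds 5 protein-coding genes, of which the other is Ccl11, an eosinophil-attracting chemokine gene with 9 control and 2 DPCP UMIs. Ccr2 lies on chromosome 9 at 124101950 to 124113557. No run of 31 bases was shared between the transcripts of any pair of the 5 genes, so reads of that length could be told apart. The promoters of Ccl12 and Ccl8 are printed because these neighbours had the lowest and the highest ratio of the 5 genes over all cells. They cover 250 bases before to 50 bases after the start in RefSeq on GRCm38.p6, chr11:82101595-82101894 for Ccl12 and chr11:82114935-82115234 for Ccl8, both on the plus strand. Capitals mark the core of the PU.1 motif, GAGGAA, searched on both strands.
Ccl12: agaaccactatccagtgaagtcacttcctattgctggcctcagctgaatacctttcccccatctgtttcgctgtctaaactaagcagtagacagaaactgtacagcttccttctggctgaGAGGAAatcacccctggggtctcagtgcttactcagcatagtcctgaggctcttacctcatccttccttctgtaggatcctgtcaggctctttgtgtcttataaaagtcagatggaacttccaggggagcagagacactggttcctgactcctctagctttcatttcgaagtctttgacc
Ccl8: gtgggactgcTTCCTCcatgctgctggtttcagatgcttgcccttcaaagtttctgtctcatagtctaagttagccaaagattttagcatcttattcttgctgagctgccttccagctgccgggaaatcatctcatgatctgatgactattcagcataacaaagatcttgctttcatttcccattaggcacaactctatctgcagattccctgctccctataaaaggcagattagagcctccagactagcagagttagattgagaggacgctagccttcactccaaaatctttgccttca
Each window held 1 match, and 28.3% of the 32851 windows of the same length over all genes held at least 1. In Ccl12 the match lay 130 to 125 bases before the start, and in Ccl8 it lay 240 to 235 bases before it on the opposite strand. The Ccr2 window held none. Motifs for kappaB, ISRE, GAS (TTCNNNGAA), AP-1 (TGANTCA) and CEBP (TTGCNNAA) had no match in the 3 windows, against 1.63%, 3.44%, 8.30%, 7.81% and 10.8% of all windows. These letter matches are a description of the sequence and not a measurement of binding.

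Over all kept cells, Ccl8 stood higher in DPCP skin, while Ccl2, Ccl7, Ccl12 and Ccr2 stood lower. Ccl2 went from 38.4 CPM (36.7 to 40.1, 1987 UMIs) to 20.7 CPM (19.5 to 21.9, 1098 UMIs), or 0.539-fold (0.5 to 0.580). Ccl7 went from 11.5 CPM (595 UMIs) to 4.80 CPM (255 UMIs), or 0.418-fold (0.359 to 0.485). Ccl12, a chemokine gene found in mice, went from 12.3 CPM (635 UMIs) to 3.14 CPM (167 UMIs), or 0.256-fold (0.215 to 0.304). These 3 ligands thus had lower CPM in the pooled DPCP cells. Ccl8 went from 1.10 CPM (57 UMIs) to 9.51 CPM (505 UMIs), or 8.64-fold (6.56 to 11.6). Ccr2 went from 1339 CPM (69335 UMIs) to 643 CPM (34147 UMIs), or 0.480-fold (0.474 to 0.486). Of the 5 genes, 1 was called higher and 3 lower, against 14.3% and 10.0% of the 14376 genes measured. The call of Ccl8 rested on few cells and ended without the 5 cells richest in it in each condition, at a log2 ratio of 0.78.

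Neutrophil-like cells, 64.7% of DPCP cells, held between 1.39% (Ccl8) and 15.6% (Ccl12) of the DPCP UMIs of the 5 genes. Without neutrophil-like cells, Ccr2 was at 1346 CPM in control skin and 1003 CPM in DPCP skin, or 0.745-fold (0.735 to 0.755). In the same cells Ccl2 had a ratio of 0.766 (0.708 to 0.829), Ccl7 0.653 (0.559 to 0.760) and Ccl12 0.363 (0.300 to 0.436). Ccl8 had a ratio of 14.8 (11.2 to 19.9). All 5 directions were as before, and the calls of Ccl7 and Ccr2 as lower ended. The levels by class and condition show where the UMIs lay.

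**Figure D1:**
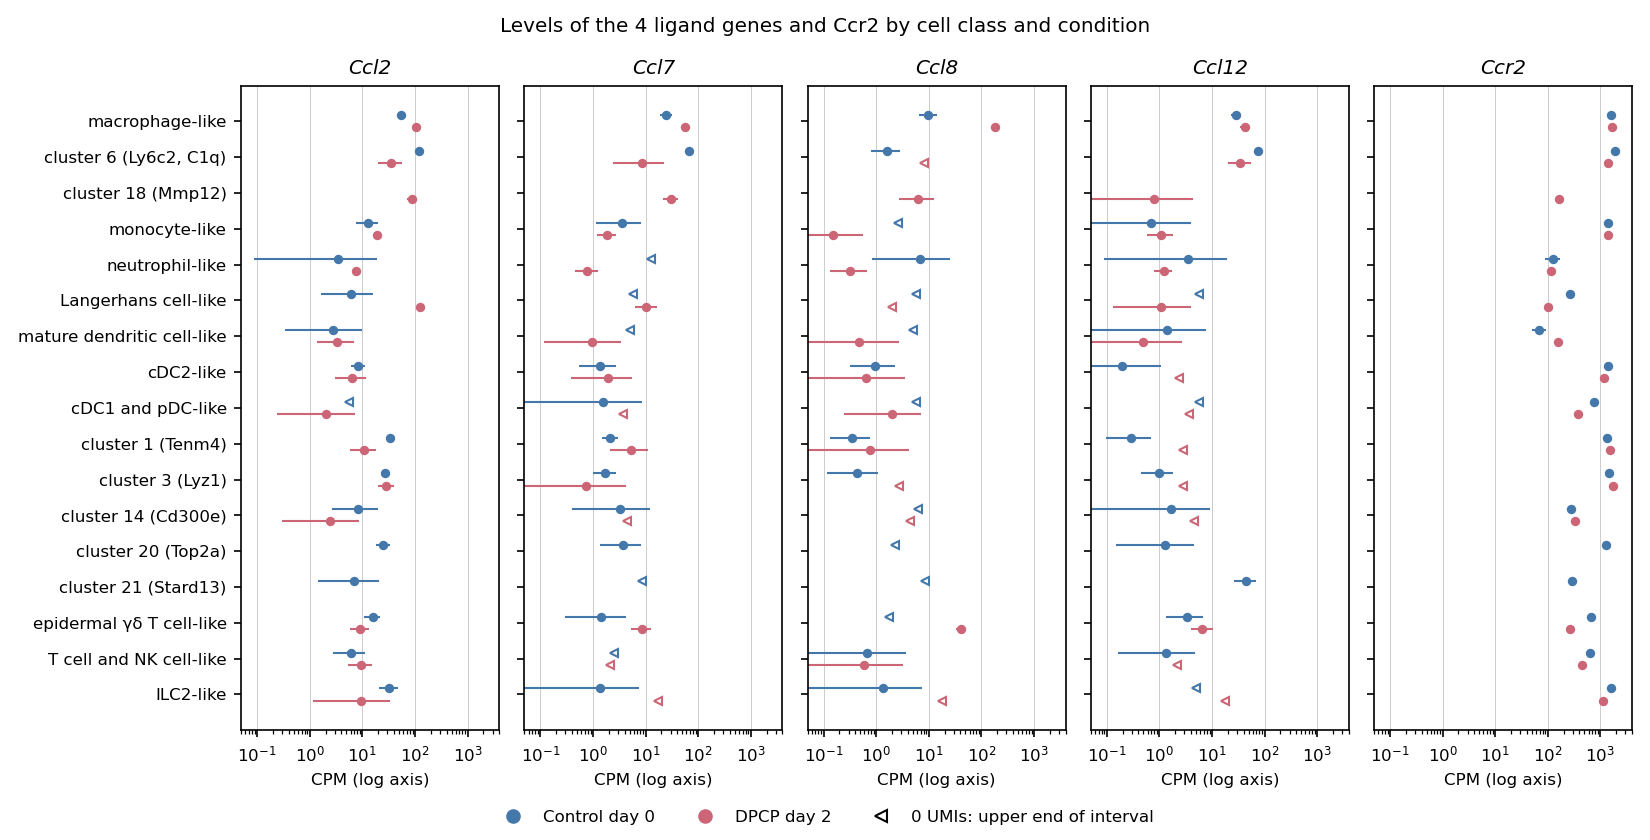
Each panel plots 1 gene, with CPM on a log axis and a cell class or unnamed cluster (with a leading gene) on each line. Points are summed levels of 1 tagged sample with 95% Poisson intervals, left-pointing triangles mark the upper end where no UMI was seen, and groups under 20 cells are left out. All 4 ligands stand high in macrophage-like cells and Ccl2, Ccl7 and Ccl12 also in cluster 6. Ccl2 is high too in DPCP Langerhans cell-like cells (124 CPM) and cluster 18 (87.5 CPM). High points that rest mostly on 1 cell each are Ccl12 in control cells of cluster 21 (44.4 CPM) and Ccl8 in DPCP γδ T cell-like cells (40.8 CPM). Ccr2 is above 1000 CPM in macrophage-like, monocyte-like and type 2 conventional dendritic cell-like cells and in clusters 1, 3, 6 and 20. It is below that in the other myeloid groups.

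In control skin Ccl7 and Ccl12 were read mainly in 1 group of macrophage-related cells, while Ccl2 was spread over more groups. The group was cluster 6, with 746 control and 55 DPCP cells, led by Siglec1, a macrophage surface lectin gene, by Ly6c2, a classical monocyte gene, and by interferon-induced genes such as Ifit2. It passed 7 of 9 macrophage markers, among them the complement genes of C1q, and kept its number because Ly6c2 was among its leading genes. Although it was 746 of 4967 control cells, it held 41.1% of control Ccl2 UMIs, 75.6% of Ccl7 UMIs and 79.8% of Ccl12 UMIs. For Ccl2, cluster 1 held a further 29.2% (580 UMIs), cluster 3 12.9% (256 UMIs) and macrophage-like cells 7.65% (152 UMIs). Ccl12 was itself among the 10 leading genes of the cluster, although it was not used to form it. For Ccl8 the cluster held 19.3% of 57 control UMIs, and macrophage-like cells held 47.4%.

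In cluster 6 all 3 ligands were lower in the few DPCP cells. Ccl2 stood at 119 CPM in control skin and 34.6 CPM in DPCP skin (16 UMIs in 8 of 55 cells), or 0.290-fold (0.165 to 0.474). Ccl7 stood at 65.8 and 8.66 CPM (4 UMIs), or 0.132-fold (0.0357 to 0.340). Ccl12 stood at 74.1 and 34.6 CPM (16 UMIs), or 0.468-fold (0.265 to 0.767). Of the 4 members with at least 50 UMIs there, 3 were called lower, against 3.98% of 8927 genes, and none higher, against 4.38%. Ccl8 had 11 control UMIs and none in DPCP cells, where 3 UMIs would be 6.50 CPM. Ccr2 stood at 1911 and 1414 CPM, or 0.740-fold (0.683 to 0.800).

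Macrophage-like cells, which passed 9 of 9 markers and were led by Igf1, Gas6, Folr2 and C1q genes, showed the other direction. Ccl2 was at 55.5 CPM (47.0 to 65.0) in control skin and 103 CPM (89.5 to 118) after DPCP, or 1.85-fold (1.5 to 2.30). Ccl7 went from 24.8 to 56.2 CPM, or 2.27-fold (1.67 to 3.10), and Ccl12 from 28.8 to 42.8 CPM, or 1.48-fold (1.08 to 2.03). Ccl8 went from 9.85 to 178 CPM, or 18.1-fold (12.2 to 27.8). Ccl7 and Ccl8, 2 of 5 members, were called higher, against 3.94% of 8157 genes, and none was called lower, against 2.82%. Ccr2 was level, at 1608 and 1668 CPM, or 1.04-fold (0.992 to 1.08).

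These opposite directions did not all hold where both groups were merged or the line between them was moved. That of Ccl12 also turned when each cell's CPM was averaged over the same macrophage-like cells. With cluster 6 and macrophage-like cells merged, 993 control and 232 DPCP cells, Ccl2 stood at 101 and 90.4 CPM, or 0.895-fold (0.771 to 1.03). Ccl7 stood at 54.0 and 47.6 CPM, or 0.880-fold (0.716 to 1.07), and Ccl12 at 61.1 and 41.3 CPM, or 0.675-fold (0.543 to 0.832). Ccl8 stood at 3.96 and 146 CPM, or 36.8-fold (26.3 to 52.8), and Ccr2 at 1825 and 1622 CPM, or 0.889-fold (0.859 to 0.920). At a coarser clustering (resolution 0.5), the log2 ratios in macrophage-like cells were -0.33 for Ccl2, -0.30 for Ccl7 and -0.69 for Ccl12. The direction of Ccl12 turned under 7 of 14 alternatives, that of Ccl7 under 3 and that of Ccl2 under 1, while Ccl8 stayed higher under all 14 that were run. Summed over 9 macrophage markers, the level was 7366 and 8867 CPM in macrophage-like cells and 3253 and 2997 CPM in cluster 6.

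Shares of cells with a UMI did not always follow the levels once cells were brought to equal depth. In macrophage-like cells 23.9% of control and 36.7% of DPCP cells had a Ccl2 UMI, at medians of 8653 and 10579 UMIs per cell. T cell and natural killer cell-like cells, taken as a class that should hold little Ccl2, gave 2.58% and 4.23% at medians of 7374 and 9685.5 UMIs. After each cell was thinned to 1000 UMIs, the macrophage-like shares were 3.66% (1.69 to 6.83) and 7.34% (3.97 to 12.2), with intervals that overlap. Cluster 6 gave 6.96% (5.22 to 9.05) of control cells and 3.77% (0.460 to 13) of DPCP cells at the same depth. For Ccl12, 14.1% of control and 10.9% of DPCP cells of cluster 6 had a UMI, the same order as its level. The thinned shares were 3.82% (2.55 to 5.47) and 9.43% (3.13 to 20.7), the opposite order, with intervals that overlap. That DPCP share was 5 of 53 cells in a random draw. Macrophage-like cells gave 3.66% and 3.95% for Ccl12.

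The ligands sat in few cells, and this limits what a class level says. In control skin 608 cells held the 1987 Ccl2 UMIs, and 59 of them held 50% of the UMIs. Ccl7 lay in 182 control and 90 DPCP cells, and Ccl12 in 159 and 85 cells. Ccl8 was the extreme: its 505 DPCP UMIs lay in 34 cells, and 4 cells held 420 of them, or 83.2%. In control skin 57 Ccl8 UMIs lay in 35 cells, with at most 6 in 1 cell. Cells with a Ccl8 UMI were thus 35 of 4967 and 34 of 7588, and the UMIs in the richest of them differed. Ccr2 was spread over 4476 control and 3967 DPCP cells, of which 950 and 468 held 50% of its UMIs.

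**Figure D2:**
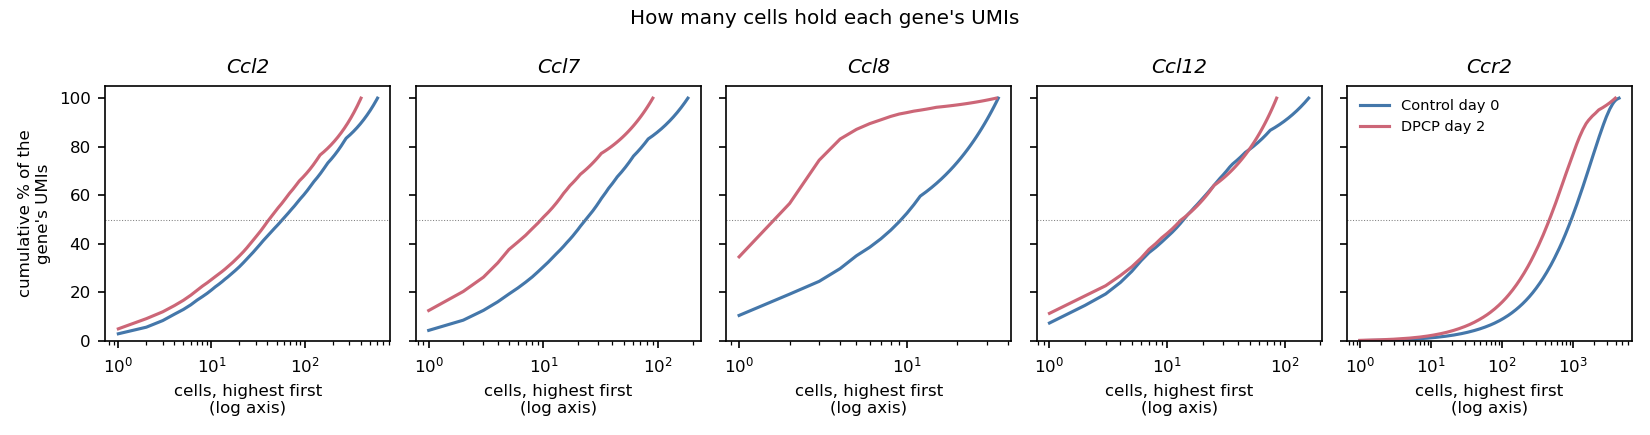
Cumulative percentage of each gene's UMIs (vertical axis) over cells ranked from the highest UMI count down (horizontal log axis), by condition, with a dotted line at 50%. The Ccl8 curve of DPCP skin reaches 83.2% at 4 cells, while Ccr2 needs 468 cells in DPCP skin and 950 in control skin to reach 50%.

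The cells richest in Ccl8 were identified one by one. In DPCP skin the highest held 175 Ccl8 UMIs among 6519 UMIs in all, was macrophage-like and had 62 UMIs of the C1q genes, which mark tissue macrophages. The second held 111 Ccl8 UMIs and fell in the epidermal γδ T cell-like class, but it also carried 178 C1q UMIs beside 34 UMIs of T cell genes and 22726 UMIs in all. That cell alone gave the class its 40.8 CPM of Ccl8, a call as higher against 6.36% of 9035 genes, and whether it was 1 cell or a pair was not tested. The next 2 were macrophage-like, with 90 and 44 Ccl8 UMIs and 215 and 295 C1q UMIs. Only 1 of these 4 cells had Ccl7 or Ccl12 UMIs, the γδ T cell-like one with 20 and 7. Without the 5 cells with the most UMIs in each condition, a choice made after seeing the data, the log2 ratio of Ccl8 was 0.78 in place of 3.11 over all cells, and 2.34 in place of 4.18 in macrophage-like cells. In macrophage-like cells 12 of 247 control and 18 of 177 DPCP cells had a Ccl8 UMI, 4.86% and 10.2%, and after thinning 1.63% and 4.52%. In T cell and natural killer cell-like cells 1 cell of each condition had one.

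Ccl2, Ccl7 and Ccl12 were often read in the same cells, and part of the few Ccl8 cells held them too. At least 1 ligand UMI was found in 759 control cells (15.3%) and 523 DPCP cells (6.89%), and at least 2 ligands in 170 and 67 cells. In control cells of cluster 6, 263 of 746 had a ligand UMI and 113 had at least 2 ligands. There, Ccl7 was read in 40.3% (33.5 to 47.3) of the 206 cells with Ccl2 and in 4.44% (2.87 to 6.54) of the 540 without. Ccl12 was read in 34% and 6.48% of the same cells. Ccl8 was read in 0.485% and 0.926%, or 1 and 5 cells, too few for a comparison. Over all DPCP cells, 26.5% (12.9 to 44.4) of the 34 cells with Ccl8 had Ccl2, against 5.23% of the cells without it. Ccl12 was in 20.6% (8.70 to 37.9) of them, against 1.03%, and Ccl7 in 11.8% (3.30 to 27.5), against 1.14%. Of these 34 cells 18 were macrophage-like, and their median depth was 9755.5 UMIs, against 4719 in the cells without Ccl8. Within DPCP macrophage-like cells, Ccl8 was read in 7.69% of the 65 cells with Ccl2 and in 11.6% of the 112 without. For Ccl7 these shares were 8.33% and 10.5%, and for Ccl12 17.2% and 8.78%. The intervals of all 3 pairs overlap. In control skin Ccl2 was in 20% (8.44 to 36.9) of the 35 cells with Ccl8, against 12.2%, and Ccl7 in 17.1% (6.56 to 33.6), against 3.57%. Ccl12 was in 14.3% (4.81 to 30.3), against 3.12%. Control cells of cluster 6 with Ccl2 were also deeper, with a median of 11217 UMIs against 6976.5. The part of depth or of cell class in these overlaps was not tested. Ccr2 was in nearly every cell of the cluster, 205 of the 206 with Ccl2 and 522 of the 540 without.

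Langerhans cell-like cells, the antigen-presenting cells of the epidermis, stood out for Ccl2 in DPCP skin. Ccl2 went from 6.14 CPM (4 UMIs in 3 of 56 cells) to 124 CPM (226 UMIs in 25 of 123 cells), or 20.1-fold (7.76 to 74.6). The 10 cells with at least 5 Ccl2 UMIs held 84.5% of the UMIs, and the richest had 55, 46 and 31. Cd207, which encodes langerin and was a marker of this class, was read in 9 of these 10 cells and in 77 of the 98 cells without Ccl2. Its median was 2 UMIs in these 10 cells and 3.5 in the cells without Ccl2. Epcam, another marker of the class, was read in 5 of the 10 (median 0.5 UMIs) and in 62 of the 98 (median 1). C1qa was read in 10 of the 10, with a median of 24.5 UMIs, against a median of 7.5 in the cells without Ccl2. The dermal macrophage genes Cd163 and Folr2 were read in 0 and 1 of the 10 cells. Over the class, the 9 macrophage markers summed to 906 CPM in control (1 at 0) and 3346 CPM in DPCP cells (none at 0), and C1qa went from 181 to 1204 CPM. The part of these markers in the Ccl2 level was not tested. Ccl7 had 19 UMIs in 5 DPCP cells, 15 of them in 1 cell that also held 31 Ccl2 UMIs, and Ccl8 had none in either condition. Ccr2 went the other way, from 266 to 102 CPM, or 0.383-fold (0.310 to 0.474). Few cells carried that level: 30 and 28 of the 173 control UMIs lay in 2 cells, and 50 and 34 of the 186 DPCP UMIs in 2 others. The share of cells with a Ccr2 UMI was 42.9% and 48.0%, and after thinning 12.5% (5.18 to 24.1) and 8.13% (3.97 to 14.4), with intervals that overlap. Of 2 measured members, 1 was called higher and 1 lower, against 12.2% and 8.78% of 6915 genes.

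Ccl2 was also read in other groups, at lower levels than in macrophage-like DPCP cells. Cluster 18, led by Mmp12, a macrophage elastase gene, with Arg1 and Pdpn, was found in DPCP skin only, with 127 cells. It stood at 87.5 CPM of Ccl2 (110 UMIs in 25 cells), 30.2 CPM of Ccl7 and 167 CPM of Ccr2, against 1668 CPM of Ccr2 in macrophage-like DPCP cells. Cluster 21, led by Stard13 and Fat3, had 38 control and 4 DPCP cells. In control skin it stood at 44.4 CPM of Ccl12 (19 UMIs in 5 cells), and 1 cell held 14 of these UMIs. The 9 macrophage markers summed to 8643 CPM there. Cluster 1, led by Thsd4 and Tenm4, had 1412 control and 108 DPCP cells and stood at 34.3 and 10.6 CPM of Ccl2, or 0.310-fold (0.168 to 0.524). That was 1 call lower among 2 measured members, against 1.81% of 10320 genes (2.00% were higher), and it rested on 14 DPCP UMIs. Cluster 3, led by Spink2, Ear2 and Lyz1, was level at 27.5 and 28.6 CPM. Monocyte-like cells stood at 12.7 CPM (18 UMIs) and 19.3 CPM (251 UMIs), or 1.52-fold (0.944 to 2.61), with an interval that includes 1. Being many, they held 22.9% of the DPCP Ccl2 UMIs, against 19.5% in macrophage-like and 20.6% in Langerhans cell-like cells. Neutrophil-like DPCP cells stood at 7.65 CPM of Ccl2, with a UMI in 122 of 4906 cells (2.49%, at a median of 3656.5 UMIs). T cell and natural killer cell-like DPCP cells gave 4.23%, at a higher median depth of 9685.5 UMIs. After thinning, these shares were 0.822% (0.585 to 1.12) and 1.42% (0.172 to 5.03), with intervals that overlap. Of the 165 neutrophil-like UMIs, 83 lay in cluster 0, which stood at 14.1 CPM. Clusters 2, 5, 7 and 10 stood at 2.83 to 7.85 CPM in DPCP skin. The thinned share of cluster 0 was 1.42% (0.910 to 2.10), beside 1.17% (0.608 to 2.04) in monocyte-like DPCP cells. Because neutrophil-like cells were many, they held 15% of the DPCP Ccl2 UMIs. In the other dendritic cell classes Ccl2 was at most 8.34 CPM. Fibroblast markers, 6 genes of a cell type known to make these ligands, summed to 8.13 CPM in control skin and 1.45 CPM after DPCP. The 6 control cells with at least 3 of those markers held 8 of the 3274 ligand UMIs.

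Ccr2 was a gene of most myeloid and some lymphoid cells. By level in control skin, cluster 6 came first at 1911 CPM (1879 to 1944), followed by macrophage-like cells at 1608 CPM (1561 to 1656) and group 2 innate lymphoid cell-like cells at 1598 CPM (1508 to 1692). The last pair did not differ beyond counting error. Cluster 3 stood at 1487 CPM, monocyte-like cells at 1409, type 2 conventional dendritic cell-like cells at 1386 and cluster 1 at 1314. The cluster of type 1 conventional and plasmacytoid dendritic cell-like cells stood at 761 CPM, epidermal γδ T cell-like cells at 659 and T cell and natural killer cell-like cells at 635. Cluster 14, led by Cd300e, S1pr5 and Ace, genes known from non-classical monocytes, stood at 275 CPM, and Langerhans cell-like cells at 266. Neutrophil-like cells stood at 125 CPM and mature dendritic cell-like cells, which carry Ccr7, at 69.1.

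Monocyte-like cells, taken as a whole, had the same Ccr2 level in both conditions within counting error. They stood at 1409 CPM (1348 to 1472) in 178 control cells and 1397 CPM (1377 to 1418) in 1027 DPCP cells, or 0.992-fold (0.947 to 1.04). Thinned to 1000 UMIs, 66.5% (59.0 to 73.4) and 69.8% (66.9 to 72.6) had a Ccr2 UMI. None of the 2 measured members was called, against 4.02% higher and 3.16% lower of 9942 genes. The class joins 2 clusters, and cluster 12 (22 control and 287 DPCP cells) held S100a8, a neutrophil gene, at 13121 and 14698 CPM, against 306 and 678 CPM in cluster 4. Ccr2 was at 1099 and 974 CPM in cluster 12, which had too few control cells for a ratio. In cluster 4 (156 control and 740 DPCP cells) it was at 1472 and 1590.3 CPM, or 1.08-fold (1.03 to 1.14), an interval that excludes 1. The level of the class thus mixed 2 clusters present in different shares. Of 14 alternatives, 8 moved the class ratio beyond its interval. As monocyte-like cells were more numerous after DPCP, they held 53.1% of the DPCP Ccr2 UMIs against 2.88% of those in control skin.

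In some groups outside the monocyte-like and macrophage-like classes, Ccr2 differed more than in those 2 classes. In epidermal γδ T cell-like cells it went from 659 to 264 CPM, or 0.400-fold (0.365 to 0.438), a call lower against 4.23% of 9035 genes. Of the 718 DPCP UMIs, 51 and 47 lay in 2 cells, and of the 1384 control UMIs 51 and 48 lay in 2 others. The 9 macrophage markers summed to 818 CPM in control and 457 CPM in DPCP cells of this class. Among them Mrc1 went from 355 to 120 CPM and C1qa from 74.8 to 84.9 CPM. In these cells S100a8, read here as a sign of neutrophil RNA, went from 244 to 6935 CPM. Without cells rich in S100a8 and S100a9 the log2 ratio of Ccr2 was -0.83 in place of -1.32, and with only cells of at least 80% own tag it was -0.61, so that the call ended under both. In the type 1 conventional and plasmacytoid dendritic cell-like cluster Ccr2 went from 761 to 382 CPM, or 0.502-fold (0.438 to 0.575), with S100a8 from 279 to 3797 CPM. In T cell and natural killer cell-like cells it went from 635 to 443 CPM, or 0.697-fold (0.633 to 0.768), with S100a8 from 251 to 4815 CPM. The 9 macrophage markers summed to 140 and 88.5 CPM in the former group and to 362 and 206 CPM in the latter. The part of macrophage RNA in the Ccr2 levels of these 3 groups was not tested. Ccr2 in type 2 conventional dendritic cell-like cells went from 1386 to 1155 CPM, or 0.833-fold (0.791 to 0.877), and clusters 1 and 3 had ratios of 1.15 (1.10 to 1.21) and 1.20 (1.14 to 1.25). Ccr2 in mature dendritic cell-like cells went from 69.1 CPM (50 UMIs) to 155 CPM (321 UMIs), or 2.24-fold (1.66 to 3.08), a call higher against 10.5% of 6317 genes (3.82% were lower). S100a8 went from 228 to 2426 CPM in these cells. Of their 321 DPCP Ccr2 UMIs, 45 and 34 lay in 2 cells, and 14 of the 50 control UMIs lay in 1 cell. The share of cells with a Ccr2 UMI was 41.4% and 49.6%. Thinned shares there were 5.17% (1.08 to 14.4) and 10.7% (5.80 to 17.5), with intervals that overlap. Neutrophil-like cells gave 7.84% and 12.5%. No measured member was called in the remaining groups. The shares of genes called higher and lower there were 3.68% and 4.84% in type 2 conventional dendritic cell-like cells, 4.36% and 3.07% in T cell and natural killer cell-like cells, 4.75% and 2.80% in the type 1 and plasmacytoid cluster, 2.73% and 1.70% in cluster 3 and 1.54% and 1.28% in cluster 14. Neutrophil-like cells had 125 and 116 CPM of Ccr2, and none of 2 measured members was called, against 5.95% higher and 7.82% lower of 10113 genes. Their control cells lay mostly in cluster 2 and their DPCP cells in clusters 0, 2, 5, 7 and 10.

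**Figure D3:**
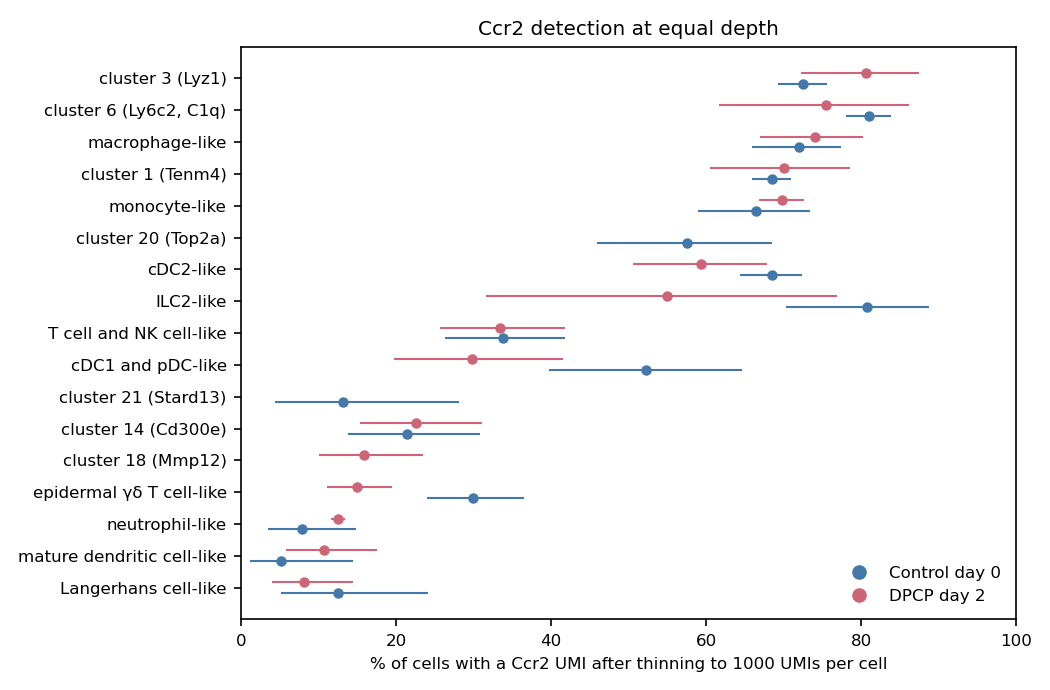
Percentage of cells with a Ccr2 UMI (horizontal axis) after every cell was thinned to 1000 UMIs, for each class or unnamed cluster and condition, with exact binomial 95% intervals. Monocyte-like and macrophage-like cells sit between 66.5% and 74.0% in both conditions, and epidermal γδ T cell-like cells at 30% in control and 14.9% in DPCP skin.

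The other receptors of these ligands were laid out differently. Ccr1, which neutrophils and monocytes use, went from 66.3 to 601 CPM over all cells, and neutrophil-like cells held 80.5% of its DPCP UMIs at 1192 CPM. In monocyte-like cells Ccr1 went from 82.5 to 236 CPM, or 2.85-fold (2.37 to 3.46), and in macrophage-like cells from 62.0 to 205 CPM, or 3.31-fold (2.76 to 3.97). S100a8 went from 2462 to 5066 CPM in monocyte-like cells, where cluster 12 was 22 of 178 control and 287 of 1027 DPCP cells, and from 332 to 796 CPM in macrophage-like cells. The part of neutrophil RNA in these Ccr1 levels was not tested. Langerhans cell-like cells went from 12.3 CPM (8 UMIs) to 223 CPM. In cluster 18, where Ccr2 was at 167 CPM, Ccr1 was at 644 CPM. Ccr3, the eosinophil receptor of the same gene cluster, had 71 control and 289 DPCP UMIs. Ccr8, the receptor named above for mouse CCL8, had 35 control and 27 DPCP UMIs, or 0.752-fold (0.438 to 1.28). Of these, 23 and 21 lay in T cell and natural killer cell-like cells. The scavenger Ackr2, known from lymphatic vessels, had no UMI in either condition, where 3 UMIs would be 0.0579 and 0.0565 CPM, and Ackr1 and Ackr4 had 25 and 17 control UMIs and 13 and 14 DPCP UMIs.

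**Figure D4:**
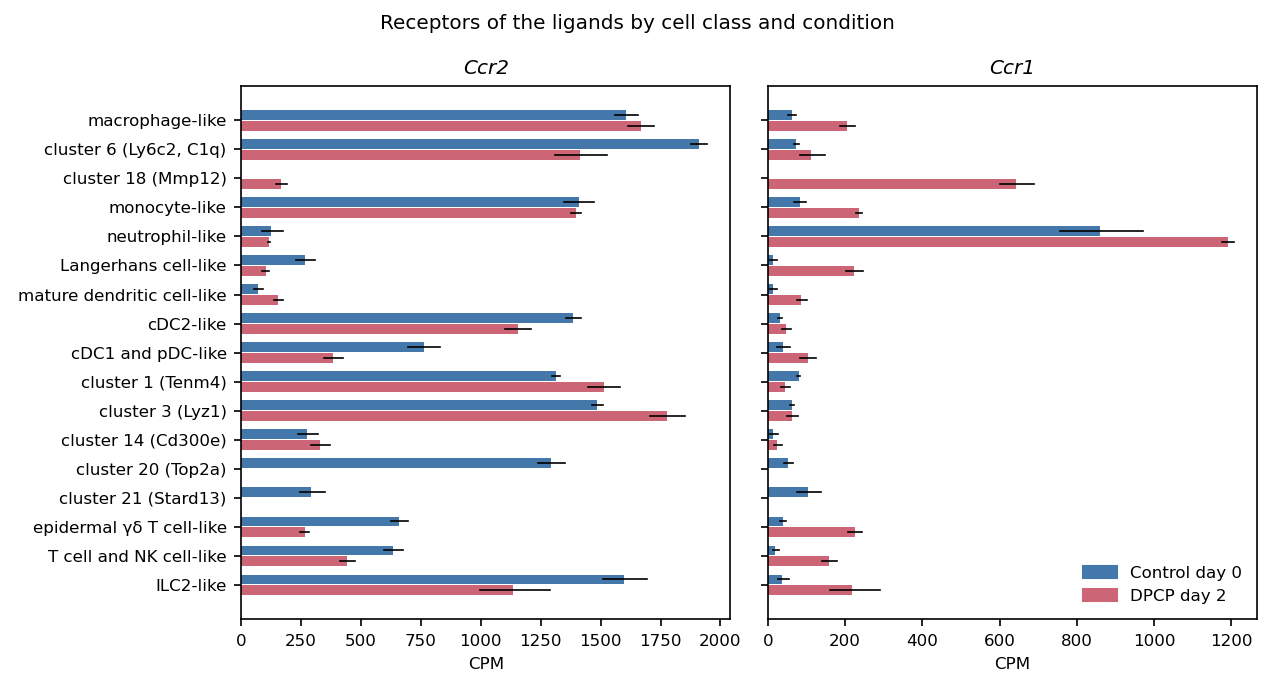
Bars give the summed CPM of Ccr2 and Ccr1 on axes that start at 0, by class or unnamed cluster and condition, with black lines for 95% Poisson intervals. Ccr1 is highest in neutrophil-like cells at 1192 CPM in DPCP skin, where Ccr2 is at 116 CPM.

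Genes around this pathway were counted in 7 lists. In macrophage-like cells, 4 of 45 measured list genes were higher and 1 lower, against 3.94% and 2.82% over all genes. Besides Ccr1 these were Il1b, an inflammatory cytokine gene, from 50.7 to 270 CPM, Csf2rb, the shared receptor chain for GM-CSF, from 67.5 to 141 CPM, and Ccl4 from 43.4 to 89.4 CPM. Spn, a sialoglycoprotein gene of non-classical monocytes, went from 17.1 to 6.25 CPM. In monocyte-like cells 5 of 53 were higher and 1 lower, against 4.02% and 3.16%. F11r, a junctional adhesion gene, went from 2.82 CPM to 95.5 CPM, and 3 UMIs would be 2.12 CPM in the control cells. It was also called higher in type 2 conventional dendritic cell-like and epidermal γδ T cell-like cells. In monocyte-like cells Il1b went from 266 to 771 CPM, and Csf2rb and Ccl3 had ratios of 2.15 and 2.12. Cx3cr1, the fractalkine receptor gene of patrolling monocytes, went from 504 to 197 CPM, or 0.390-fold (0.359 to 0.425). The part of the mix of clusters 4 and 12 in these levels was not tested.

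By list, the 14 genes of CCR2 signalling (G proteins, kinases and arrestins) had 0 higher and 0 lower in both classes, which does not set them apart from the shares over all genes just given. Their median log2 ratio was -0.08 in monocyte-like and 0.20 in macrophage-like cells, beside -0.04 and 0.05 over all measured genes. Of 10 genes of monocyte adhesion and exit from vessels, 10 were measured in monocyte-like cells and 1, F11r, was higher. Of 13 inducers of the ligands and their receptors, 9 were measured in monocyte-like and 7 in macrophage-like cells, with 2 higher in each. In cluster 6, Il1b went from 57.7 to 130 CPM and Cx3cr1 from 243 to 84.5 CPM, while the 3 ligands were lower. In Langerhans cell-like cells 7 of the 10 measured inducer genes were higher and 1, Il1r1, was lower, against 12.2% and 8.78% over all genes of the class. Among the 7 were Il1b at a ratio of 6.84 (5.10 to 9.37) and Tnfrsf1b at 5.47 (3.25 to 9.93). The median log2 ratio of that list was 1.69 there, beside 0.10 over all genes. Il1b was not particular to these classes: it was called higher in every group compared except neutrophil-like cells and clusters 1 and 3. Csf2rb was also called higher in neutrophil-like, epidermal γδ T cell-like and T cell and natural killer cell-like cells. S100a8 went from 755 to 1687 CPM in Langerhans cell-like cells. The part of neutrophil RNA in the Il1b and Csf2rb levels of any class was not tested.

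The genes whose levels were most like each member were taken over 29 class-by-condition units, among 11830 genes, by Pearson's r of log2(CPM + 1). The units share 1 library and differ in depth, and r is a description. Ccl2 was most like C1qb (0.89), C3ar1 (0.88), the complement C3a receptor gene, and 2310022A10Rik (0.83). Ccl7 was most like C3ar1 (0.83), Cltc (0.83) and Gas6 (0.82), and Ccl12 like Wwp1 (0.83), Gas6 (0.80) and Osbpl11 (0.79). For Ccl8 the values were lower, with Cd209f at 0.73, Gas6 at 0.64 and Mon2 at 0.61. Ccr2 was most like Pros1 (0.91), Cysltr1 (0.90) and Cd300lg (0.90). Between members, r was 0.76 for Ccl2 and Ccl7, 0.73 for Ccl7 and Ccl12, and 0.53 for Ccl2 and Ccl12. Ccl8 had 0.54 with Ccl7, 0.53 with Ccl12, 0.30 with Ccl2 and 0.04 with Ccr2.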

How the data were processed

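The deposited file holds UMI counts per gene and cell, which the authors left unnormalized: the values are whole numbers. Per the file headers the matrix comes from Cell Ranger 7.0.0. The submitters' processing notes name Cell Ranger 6.1.1, Seurat 4.0.1 and mm10. Conditions came from the deposited tag tables: of 14146 barcodes, 6280 were control and 7866 DPCP, and the own tag was the larger one in 6280 and 7859. The median own-tag share was 97.6% and 83.7%. The members and gene lists were chosen with earlier results of these data known.

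A cell needed 200 genes and no more than 10% mitochondrial UMIs, which removed more control cells (20.8% were over the limit, against 3.53%). Kept cells held 51779148 and 53121083 UMIs. Scrublet called 3 and 0 doublets, too few to have worked, so doublets remain. Clustering used scanpy 1.11.5, 2000 variable genes, 30 components, 15 neighbours and Leiden (leidenalg 0.10.2) at resolution 1. A cluster was named when at least 3 fixed markers were in at least 10% of its cells and at least 2-fold above the rest. Ties gave joint names, and clusters with leading genes of another class kept numbers, rules set after seeing the data. Ratios needed 50 cells in each condition.

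Levels carry exact Poisson intervals, ratios exact conditional binomial intervals and shares exact (Clopper-Pearson) intervals, at 95%. They treat UMIs or cells as independent. The floor was 3 counts. Named genes were the 5 members, list genes past a ratio of 2 (at most 4 per direction) and the 3 most alike genes of each member among those with at least 200 UMIs. The intervals were tested on simulated Poisson counts, the model they assume, so that test does not cover UMIs clumped in few cells. Python 3.11.15, scipy 1.17.1 and edgeR 4.0.16 (TMM only) were used. Alternatives covered filters, scaling, tags, doublets, clustering, gating and thinning. One list gene is not reported here.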

Additional observations from a re-analysis of the deposited data

How the results depend on the processing

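Of 201 alternatives over the reported values, 134 moved a value by less than its interval or kept the count, and 56 moved it further. Another 11 turned the direction of a ratio whose interval excluded 1. Changes of sign in ratios whose interval included 1 were counted among the other alternatives, such as Ccl2 in monocyte-like and Ccr2 in macrophage-like cells. The cause was not tested. Values here are log2 ratios of DPCP to control. Leiden resolution 0.5 gave Ccl2 -0.33, Ccl7 -0.30, Ccl8 5.07, Ccl12 -0.69 and Ccr2 -0.15 in macrophage-like cells, and Ccr2 0.30 in monocyte-like cells. Resolution 2 gave 0.51, 0.48, Ccl12 -0.13 and Ccr2 0.15 in macrophage-like cells. With 4000 variable genes Ccl12 was -0.084 and Ccr2 0.22 in macrophage-like cells, and Ccr2 -0.21 in monocyte-like cells. With no filter on cells the macrophage-like values were Ccl2 0.41, Ccl7 -0.97, Ccl12 -2.21 and Ccr2 -0.057, and Ccr2 was -1.03 over all cells. Without the 5% of cells with the highest doublet scores they were 0.24, -0.93, -1.87 and 0.12, and Ccr2 was 0.14 in monocyte-like cells. The stricter filter gave Ccr2 -1.11 over all cells, Ccl7 0.66 in macrophage-like cells, and Ccr2 0.10 in monocyte-like and -1.51 in γδ T cell-like cells. A per-cell marker gate gave macrophage-like Ccl8 5.49, Ccl12 -0.33 and Ccr2 -0.45, monocyte-like Ccl2 -1.53 and Ccr2 -0.20, and γδ T cell-like Ccr2 -1.71. The mean over cells gave Ccl8 1.92, Ccl12 -2.32 and Ccr2 -1.55 over all cells, Ccl8 3.44 and Ccl12 -0.28 in macrophage-like cells, and Ccr2 -1.18 in γδ T cell-like cells. At least 80% own tag gave Ccl2 -0.60, Ccl7 -1.01, Ccl8 3.54, Ccl12 -1.68 and Ccr2 -0.94 over all cells, and Ccr2 -0.61 in γδ T cell-like cells. Without cells rich in S100a8 and S100a9, Ccr2 was -1.12 over all cells, 0.12 in monocyte-like and -0.83 in γδ T cell-like cells. TMM scaling gave Ccr2 -0.97, -0.021 and 0.092 over all, macrophage-like and monocyte-like cells, a shift of every gene by 0.085, -0.074 and 0.10. CPM without mitochondrial and ribosomal protein genes gave Ccr2 -1.14 over all cells. Without the 5 cells richest in the gene, Ccl7 was -1.63 and Ccl8 0.78 over all cells, macrophage-like Ccl2 was 1.22, Ccl8 2.34 and Ccl12 1.14, monocyte-like Ccr2 0.063 and γδ T cell-like Ccr2 -1.58. With at least 200 summed UMIs, 0 list genes were lower in macrophage-like cells. In Langerhans cell-like cells the alternatives that ran gave Ccl2 4.28 to 4.51 and Ccr2 -1.44 to -1.10. Those for the highest doublet scores and the per-cell gate were not run there, with under 50 cells, nor was Ccl2 without the 5 cells. No paired analysis was possible because each condition is 1 tagged sample. Depth also limits 3 of the ligands: Ccl7, Ccl8 and Ccl12 had 57 to 635 control UMIs in all.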
